A study of Homo sapiens with 4 samples.

Results

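The genes described here are the 3 classical dynamins DNM1, DNM2 and DNM3 and 6 genes whose products fuse or divide mitochondria, DNM1L, MFN1, MFN2, OPA1, MFF and FIS1. The rule takes them by gene symbol and uses no measured value, although the set was put together with earlier results of these data known. Of the 9 genes, 8 had counts, out of 15221 genes with counts. DNM3 has 3 transcripts among the named RefSeq transcripts, but no counts for them in the table used here, so it has no value in what follows. Expression was measured by RNA-seq in 4 libraries, 2 of PANC-1 and 2 of PZT-2. PANC-1 is a wild-type line of pancreatic ductal adenocarcinoma, and PZT-2 is 1 clone made from it with lentiviral shRNAs, under a U6 promoter and with puromycin selection, that knock down all 3 isoforms of the histone variant H2A.Z. Both lines were grown in DMEM with 10% FBS. What belongs to the knockdown and what belongs to the selection or to the single clone cannot be told apart in these libraries. The paper's figure legend calls the 2 libraries of a line biological replicates, without saying whether they were separate cultures. Nothing in the labels ties them to separate cultures either, so p-values measure the spread between these libraries, which may be technical.

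Dynamins are large GTPases that assemble into collars around a membrane neck and cut it. DNM1, best known from neurons, DNM2, which is found in most tissues, and DNM3 cut endocytic vesicles from the plasma membrane, whereas DNM1L, also called DRP1, is recruited from the cytosol and constricts mitochondria. MFF and FIS1 sit in the outer mitochondrial membrane, where MFF is a main receptor for DNM1L and FIS1 was first described as one. Fusion is the work of 3 further GTPases of the same superfamily, the mitofusins MFN1 and MFN2 in the outer membrane and OPA1 in the inner membrane.

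Recovered library totals lay between 12861128 and 15717289 estimated counts. H2AFZ, which encodes H2A.Z.1, was read as a check of the labels and had 6389 and 6034 normalized counts in PANC-1 and 2212 and 2259 in PZT-2. H2AFV, which encodes both H2A.Z.2 isoforms, had 3343 and 3452 against 2590 and 2718. A normalized count is a gene's count divided by the TMM-scaled size of its library and multiplied by the mean library size. Of 15101 genes tested with edgeR's quasi-likelihood test, 4292 passed an adjusted p of 0.05, which is 28.4% of them. Higher in PZT-2 were 14.7% of the genes tested and lower were 13.7%, and 66.3% had libraries that did not overlap between the lines. KRT8, KRT18 and KRT19, keratins of ductal epithelium, were abundant in every library and lower in PZT-2 (log2 fold change -1.17, -0.81 and -0.73). The adherens junction gene CDH1 had 116 and 148 normalized counts in PANC-1 and 0 and 18.8 in PZT-2. KRT7 and EPCAM, with 82.1 to 143 normalized counts per library, were not called (log2 fold change -0.27 and -0.17). Summed over the 6 epithelial markers, TPM went from 7251 and 7406 in PANC-1 to 4060 and 3971 in PZT-2.

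Both dynamins with counts, and the mitochondrial dynamin DNM1L, are made as alternative transcripts, and the exons that tell these apart are printed here because the values of each gene are divided by them below. DNM1 and DNM2 each carry a pair of mutually exclusive exons of 139 bases, taken here from GENCODE 29 transcripts. The DNM1 exons lie on chromosome 9 of GRCh38, plus strand, at chr9:128224251-128224389 (upstream) and chr9:128226035-128226173 (downstream), and the DNM2 exons on chromosome 19, plus strand, at chr19:10796061-10796199 and chr19:10797380-10797518. Capitals mark the bases at which the 2 exons of a pair differ, 39 in DNM1 (71.9% identity) and 42 in DNM2 (69.8% identity).
DNM1 upstream exon: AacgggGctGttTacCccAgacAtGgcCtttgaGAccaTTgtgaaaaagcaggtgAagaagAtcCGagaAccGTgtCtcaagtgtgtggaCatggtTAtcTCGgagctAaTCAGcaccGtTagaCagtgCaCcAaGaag
DNM1 downstream exon: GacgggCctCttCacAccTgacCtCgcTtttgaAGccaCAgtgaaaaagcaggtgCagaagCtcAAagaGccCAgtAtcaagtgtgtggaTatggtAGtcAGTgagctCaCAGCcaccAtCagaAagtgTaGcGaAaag
DNM2 upstream exon: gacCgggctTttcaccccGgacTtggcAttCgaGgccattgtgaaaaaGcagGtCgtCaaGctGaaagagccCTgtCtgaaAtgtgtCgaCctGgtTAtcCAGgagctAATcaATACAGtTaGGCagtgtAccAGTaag
DNM2 downstream exon: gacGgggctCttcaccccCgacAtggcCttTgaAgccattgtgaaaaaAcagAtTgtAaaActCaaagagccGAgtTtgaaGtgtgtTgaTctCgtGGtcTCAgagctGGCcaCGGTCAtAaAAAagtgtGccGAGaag

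The upstream exon of DNM1 was closer in sequence to the upstream exon of DNM2 (77.0% identity) than to its own partner, and the downstream exons of the 2 genes shared 73.4%. All 4 are coding. DNM2 also has a coding exon of 12 bases at chr19:10808569-10808580, and DNM1L has coding exons of 78 and 33 bases at chr12:32737865-32737942 and chr12:32738264-32738296, both on the plus strand. OPA1 has coding exons of 54 and 111 bases at chr3:193617784-193617837 and chr3:193626092-193626202, plus strand. In these sequences capitals mark the optional exon, with 10 bases of the transcript on each side.
DNM2 12-base exon: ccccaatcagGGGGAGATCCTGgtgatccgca
DNM1L 78-base exon: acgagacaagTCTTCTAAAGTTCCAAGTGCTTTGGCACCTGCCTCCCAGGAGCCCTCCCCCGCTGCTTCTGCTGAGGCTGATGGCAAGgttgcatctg
DNM1L 33-base exon: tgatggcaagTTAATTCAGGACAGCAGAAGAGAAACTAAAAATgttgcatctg
OPA1 54-base exon: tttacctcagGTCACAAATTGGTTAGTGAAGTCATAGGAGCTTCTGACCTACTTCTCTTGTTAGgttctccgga
OPA1 111-base exon: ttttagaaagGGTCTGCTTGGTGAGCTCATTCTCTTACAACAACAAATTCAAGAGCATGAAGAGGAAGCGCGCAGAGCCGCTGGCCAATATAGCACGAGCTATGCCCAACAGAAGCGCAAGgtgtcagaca

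Of the 8 genes tested, DNM1 and MFN1 were called higher in PZT-2, MFF and FIS1 were called lower, and DNM2, DNM1L, MFN2 and OPA1 did not pass the test. These are 4 of 8 genes, beside 28.4% of all genes tested. In 7 of the 8 the libraries of the lines did not overlap, the exception being OPA1, beside the 66.3% of all genes given above. The median log2 fold change of the 8 genes was -0.04, and that of all genes tested was 0.0011. DNM1 had the largest change of the 8 genes, and those that were called in MFN1, MFF and FIS1 were each below 2-fold. In bulk RNA, fewer cells that express a gene and less of its RNA per cell cannot be told apart.

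**Figure D1:**
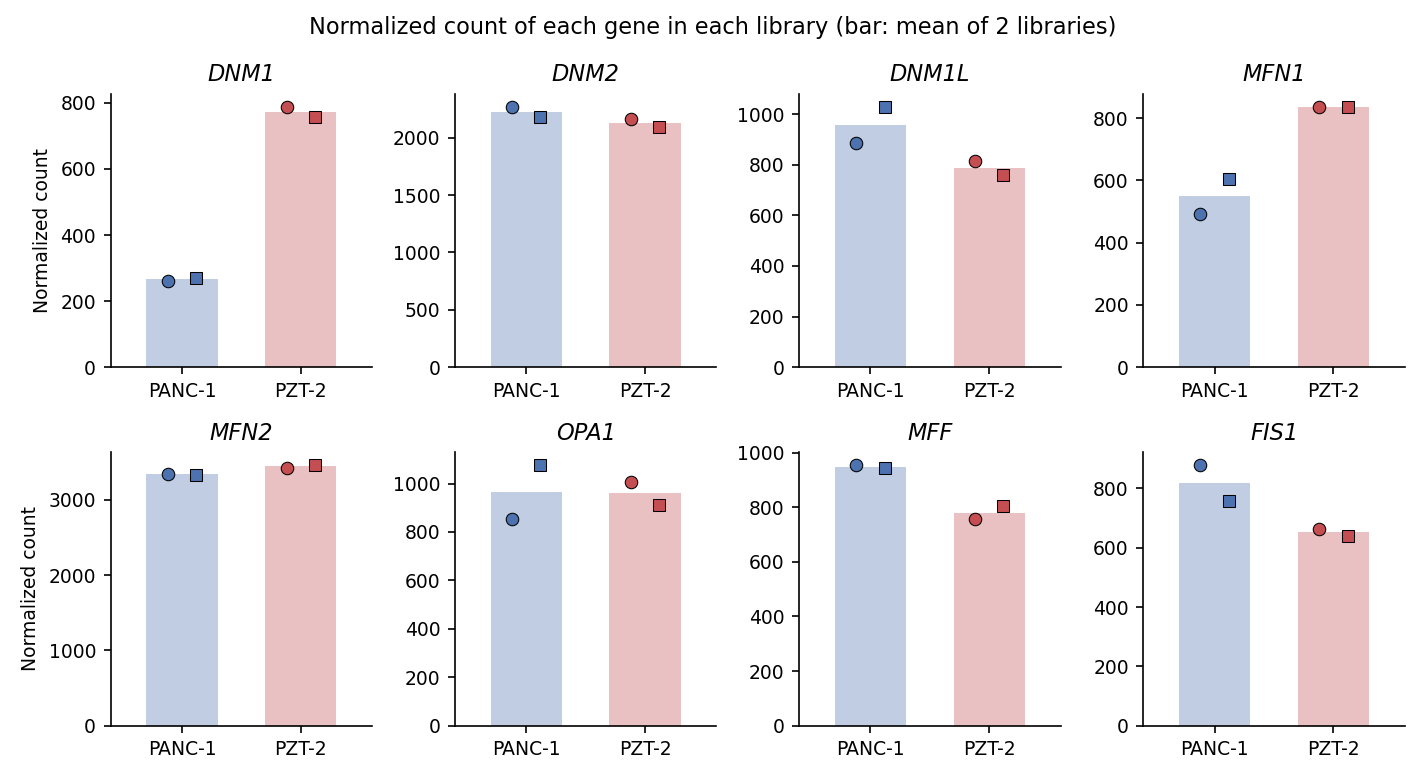
Normalized count (vertical axis, starting at 0, a separate scale for each gene) of the 8 genes with counts in PANC-1 (blue) and PZT-2 (red). Circles are replicate 1, squares replicate 2 and bars the mean of 2 libraries. DNM1 goes from 262 and 270.2 to 789 and 757, MFN1 is higher in both PZT-2 libraries, and the 2 libraries of OPA1 in PANC-1 lie on either side of those in PZT-2.

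DNM1, on chromosome 9 of GRCh38 from 128191655 to 128255248 (plus strand), had 262 and 270.2 normalized counts in PANC-1 and 789 and 757 in PZT-2. Both PZT-2 libraries stood far above both PANC-1 libraries, and replicates of a line differed little. The means were 266 ± 5.66 (SD, n = 2) and 773 ± 23.0 (SD, n = 2), a log2 fold change of 1.54 (standard error 0.0809, 95% interval 1.34 to 1.73, adjusted p = 0.000202 with edgeR's quasi-likelihood test). On the linear scale this is 2.90-fold, with an interval from 2.53 to 3.32. Of all genes tested, 1.81% had a higher log2 fold change. The study picked DNM1 out from these same libraries, among published genes of gemcitabine response, so its direction here is not independent evidence. The paper also reported higher DNM1 by RT-qPCR in PZT-2 and in a further knockdown clone, PZT-1. It reported a similar RNA-seq result for DNM1 in PZT-2 against PANC-1 cells with a scrambled shRNA. Those control cells are not among the libraries used here. DNM1 passed the test in all 15 alternative fits, with log2 fold changes between 1.49 and 1.61.

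DNM1 has pseudogene copies, and 4 of them had counts of their own. These rows were looked up after the values of DNM1 were seen. DNM1P41 had 466 and 408 normalized counts in PANC-1 and 461 and 468 in PZT-2, with no call (log2 fold change 0.09, adjusted p = 0.528). DNM1P46 had 200.3 and 177 in PANC-1 and 112 and 105 in PZT-2, and was lower in PZT-2 (adjusted p = 0.00727, log2 fold change -0.80). DNM1P35 and DNM1P50 had at most 11.1 normalized counts in any library. No copy was called higher, unlike DNM1 itself. How far reads of DNM1 and of its copies were exchanged in the estimated counts was not tested.

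DNM2, on chromosome 19 from 10718079 to 10833488 (plus strand), had 2271 and 2181 normalized counts in PANC-1 and 2166 and 2090.5 in PZT-2. The lines were close to each other, and the highest PZT-2 library lay just under the lowest PANC-1 library. The log2 fold change was -0.06 (standard error 0.0584, 95% interval -0.20 to 0.08), and it did not pass the test (adjusted p = 0.463). DNM1 and DNM2 can also be set against each other within a library, per length, as TPM (an abundance per transcript length that sums to the same total in every library, recomputed from the recovered counts and effective lengths). In PANC-1 the TPM of DNM1 was 9.22 and 10.0 and that of DNM2 79.4 and 78.5. In PZT-2 it was 29.7 and 28.035 for DNM1 and 80.1 and 76.8 for DNM2. DNM1 therefore made up 10.4% and 11.3% of the TPM of the 2 genes in PANC-1 and 27.0% and 26.7% in PZT-2, and DNM2 was 8.61 and 7.83 times as abundant as DNM1 in PANC-1 but 2.70 and 2.74 times in PZT-2.

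DNM1L, on chromosome 12 from 32679200 to 32745650 (plus strand), had 886 and 1030.2 normalized counts in PANC-1 and 814 and 760.5 in PZT-2. Both PZT-2 libraries were lower than both PANC-1 libraries, but the PANC-1 replicates also stood apart from each other. The means were 958 ± 102 (SD, n = 2) and 787 ± 38.0 (SD, n = 2), and the log2 fold change of -0.29 (standard error 0.0923, 95% interval -0.51 to -0.06) missed the threshold (adjusted p = 0.0621). It passed without PANC-1 replicate 1 (adjusted p = 0.00908) and with a filter of 10 counts in all 4 libraries (adjusted p = 0.0416), and in none of the other 13 alternatives. Without PANC-1 replicate 2 the log2 fold change was -0.18 (adjusted p = 0.190), and with the most abundant transcript alone it was -0.95 (adjusted p = 0.169).

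MFF, the outer membrane receptor for DNM1L, lies on chromosome 2 from 227325151 to 227357836 (plus strand) and had 954 and 942 normalized counts in PANC-1 and 757 and 804 in PZT-2. The replicates of each line lay close together, and PZT-2 was lower in both. The log2 fold change was -0.28 (standard error 0.0684, 95% interval -0.44 to -0.12, adjusted p = 0.0252), a level of 0.824 times that of PANC-1. The call was lost in 4 of 15 alternatives, among them without PZT-2 replicate 1 (adjusted p = 0.155), without PZT-2 replicate 2 (adjusted p = 0.0920) and with DESeq2 (adjusted p = 0.0649). With its most abundant transcript alone MFF was called at a log2 fold change of -0.56. FIS1, on chromosome 7 from 101239458 to 101252316 (minus strand), had 879 and 758 normalized counts in PANC-1 and 663 and 640 in PZT-2. PZT-2 was again lower in both libraries, with PANC-1 replicate 2 the nearer of the PANC-1 libraries. The log2 fold change of FIS1 was -0.33 (standard error 0.0911, 95% interval -0.55 to -0.11, adjusted p = 0.0394). The call of FIS1 was lost in 5 of 15 alternatives, among them without PANC-1 replicate 1 (adjusted p = 0.105), without either PZT-2 replicate (adjusted p = 0.128 and 0.189) and with DESeq2 (adjusted p = 0.0680). The 3 fission genes DNM1L, MFF and FIS1 had log2 fold changes between -0.33 and -0.28, of which 2 were called. Both of those calls were lost without either PZT-2 library. Such a fit holds 1 library of that line, and fewer of all genes were called in it. Without PZT-2 replicate 1 and without replicate 2, the log2 fold change was -0.24 and -0.32 for MFF and -0.35 and -0.30 for FIS1. With a library left out, the values of the 3 genes ran from -0.44 for FIS1 to -0.18 for DNM1L, both without PANC-1 replicate 2.

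MFN1, on chromosome 3 from 179347692 to 179394931 (plus strand), had 493 and 605 normalized counts in PANC-1 and 837 and 836 in PZT-2. Both PZT-2 libraries were above both PANC-1 libraries, which differed from each other by more than the PZT-2 pair did. The means were 549 ± 79.0 (SD, n = 2) and 837 ± 1.27 (SD, n = 2), a log2 fold change of 0.60 (standard error 0.105, 95% interval 0.35 to 0.85, adjusted p = 0.00764). On the linear scale this is 1.52-fold, with an interval from 1.28 to 1.81. Leaving out PZT-2 replicate 2 took the adjusted p to 0.0543, and leaving out PANC-1 replicate 2 took it to 0.000505. MFN1 passed in 14 of 15 alternatives. MFN2, on chromosome 1 from 11980181 to 12013514 (plus strand), had 3349 and 3325 normalized counts in PANC-1 and 3425 and 3462 in PZT-2. The lines differed by little, with a log2 fold change of 0.05 (standard error 0.0513, 95% interval -0.08 to 0.17, adjusted p = 0.559). Per length, MFN1 made up 16.5% and 19.6% of the TPM of the 2 mitofusins in PANC-1 and 24.7% and 24.5% in PZT-2. MFN2 thus stayed the more abundant mitofusin in every library, at 5.07 and 4.10 times MFN1 in PANC-1 and 3.05 and 3.09 times in PZT-2.

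OPA1, on chromosome 3 from 193593144 to 193697823 (plus strand), had 854 and 1076 normalized counts in PANC-1 and 1007 and 912 in PZT-2. The PZT-2 libraries lay between the PANC-1 libraries. The log2 fold change was -0.01 (standard error 0.118, 95% interval -0.30 to 0.27, adjusted p = 0.950), so changes within these bounds are not excluded at this spread. It was 0.16 without PANC-1 replicate 2 and 0.06 without PZT-2 replicate 2, and passed in neither. An antisense gene, OPA1-AS1, overlaps OPA1 and has no counts in the table used here.

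**Figure D2:**
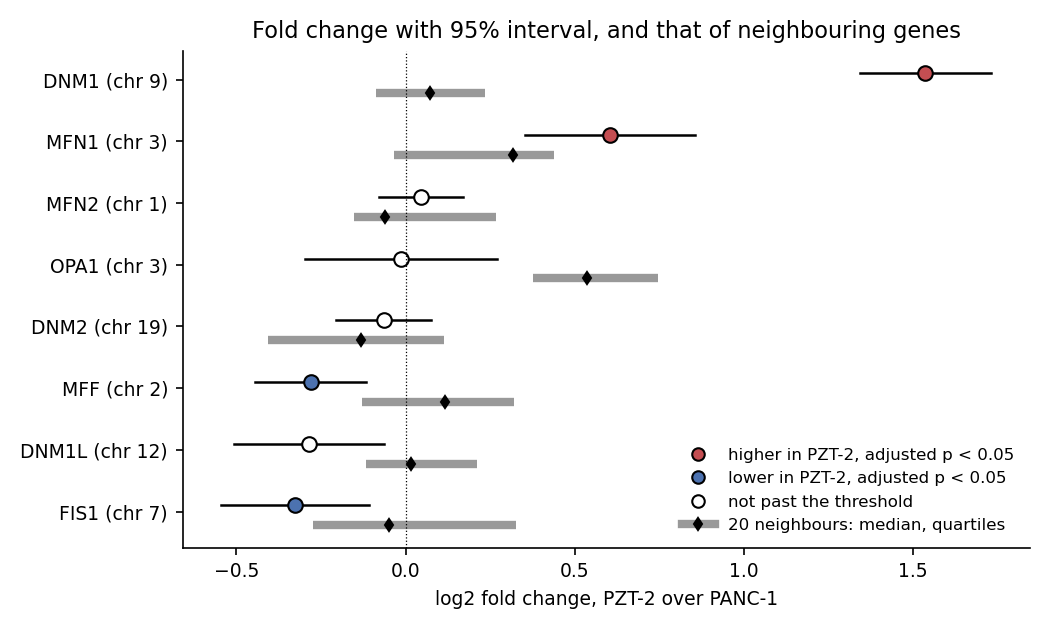
Log2 fold change of PZT-2 over PANC-1 (horizontal axis) for each gene, with its 95% interval (line) and filled red or blue where called higher or lower at an adjusted p of 0.05. The grey bar and black diamond below each give the quartiles and the median of the 20 nearest tested genes. DNM1 at 1.54 lies above the quartiles of its neighbours, whose median is 0.07, and OPA1 at -0.01 lies below the quartiles of its own.

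Levels of different genes were compared as TPM. In PANC-1, FIS1 came first with 162 ± 12.5 (SD, n = 2), followed by MFN2 with 92.2 ± 1.44, DNM2 with 78.9 ± 0.635, MFF with 67.8 ± 1.76, DNM1L with 27.3 ± 3.47, MFN1 with 20.4 ± 3.35, OPA1 with 19.4 ± 3.49 and DNM1 with 9.62 ± 0.567. Only MFN1 and OPA1 had overlapping ranges among neighbours in this order. In PZT-2 the first 4 places were the same, with FIS1 at 135 ± 3.73 (SD, n = 2) and MFF at 58.2 ± 1.36 TPM. MFN1 with 32.2 ± 0.184, DNM1 with 28.8 ± 1.14, DNM1L with 23.2 ± 1.22 and OPA1 with 19.96 ± 1.43 followed, and no neighbours in that order overlapped. DNM1 was thus the lowest of the 8 genes in PANC-1 and ranked 6 of 8 in PZT-2, above DNM1L and OPA1.

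Genes of chromosome 3 as a whole were shifted between the lines. Of 833 tested genes there, 403 were called higher (48.4%) and 21 lower, and their median log2 fold change was 0.43. MFN1 and OPA1 both lie on this chromosome, so each of the 8 genes was also set against the 10 nearest tested genes on each side. The 20 neighbours of MFN1 had a median of 0.32, of which 7 were called higher and 1 lower, and 18 of the 20 had a lower log2 fold change than MFN1. Relative to that median the log2 fold change of MFN1 was 0.29. The 20 neighbours of OPA1 had a median of 0.53, of which 8 were called higher and 1 lower, and only 3 of the 20 had a lower value than OPA1. Relative to them, the log2 fold change of OPA1 was -0.55. The 2 genes of one chromosome therefore stood on opposite sides of their neighbours. The part of the regional shift in the value of either gene was not tested.

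The other genes lay among neighbours with medians nearer to 0. For DNM1 the median of the neighbours was 0.07, with 5 called higher and 1 lower, and 19 of the 20 had a lower log2 fold change than DNM1. The exception was LCN2, 3 tested genes upstream, with a log2 fold change of 7.62 (adjusted p = 6.53e-05). Of the genes on either flank, CIZ1 was called lower (log2 fold change -0.37) and GOLGA2 higher (0.30), and CERCAM, 7 tested genes downstream, was called higher at 1.05. These 4 neighbours were named after their values were seen. The neighbour medians were -0.05 for FIS1, 0.12 for MFF, 0.02 for DNM1L, -0.06 for MFN2 and -0.13 for DNM2. Relative to these, the log2 fold changes were -0.28 for FIS1, -0.40 for MFF, -0.30 for DNM1L, 0.11 for MFN2 and 0.07 for DNM2. The values of FIS1, MFF and DNM1L stayed below 0 on this scale. On chromosome 2, which holds MFF, 240 of 956 tested genes were called higher (25.1%) and 89 lower, with a median of 0.12. Over all genes tested, 14.7% were called higher.

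**Figure D3:**
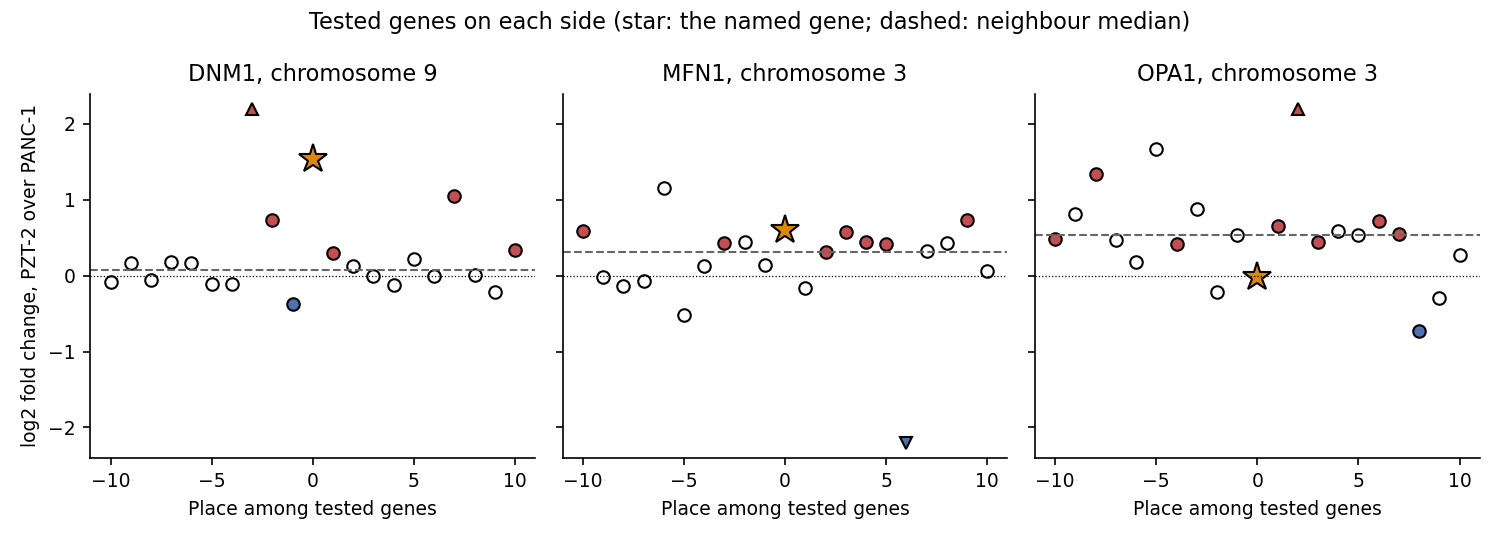
Log2 fold change of PZT-2 over PANC-1 (vertical axis) of the 10 nearest tested genes on each side of DNM1, MFN1 and OPA1, by place along the chromosome (horizontal axis, in genes). Stars are the named genes, red and blue circles genes called higher and lower, open circles genes not called, triangles genes beyond the axis, and the dashed line the neighbour median. MFN1 lies above its neighbour median of 0.32, OPA1 below its median of 0.53.

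Reads of the 8 genes were divided among 31 transcripts, all of which were tested. With edgeR none of the 31 passed an adjusted p of 0.05 over all transcripts, where 0.149% of 30301 transcripts passed, and 8 of the 31 had an unadjusted p under 0.05, beside 18.5% of all transcripts. With DESeq2, which called 14.8% of all transcripts, 6 of the 31 passed. They were both transcripts of DNM1, the single transcript of MFN1, 1 of MFF and 2 of OPA1. The 2 of OPA1 went in opposite directions. NM_130836 had 246 and 404 normalized counts in PANC-1 and 107 and 159 in PZT-2. NM_130837 had only 2.25 and 12.7 in PANC-1, and 160 and 73.0 in PZT-2. NM_004408, the DNM1 transcript with the upstream exon, had 97.8 and 134 normalized counts in PANC-1 and 335 and 287 in PZT-2. NM_001288738, with the downstream exon and a further exon of 37 bases near the 3′ end, had 164 and 138 in PANC-1 and 453 and 467 in PZT-2. Both transcripts were higher in both PZT-2 libraries, with log2 fold changes of 1.42 (adjusted p = 0.104) and 1.61 (adjusted p = 0.0662) in edgeR, neither past the threshold. Among the 9 transcripts of MFF, NM_001277062 had 373 and 378 normalized counts in PANC-1 and 251 and 255 in PZT-2 (adjusted p = 0.115, log2 fold change -0.57), while the 3 next most abundant, NM_001277061, NM_001277064 and NM_001277065, overlapped between the lines.

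The exons printed above group these transcripts into classes, given as the share of the gene's TPM in transcripts that hold the exon. Every share depends on how kallisto divided reads between transcripts. Transcripts with the downstream exon made up 58.1% and 46.0% of DNM1 in PANC-1 and 52.6% and 57.2% in PZT-2, so the lines overlapped. Among 5 named DNM1 transcripts only 2 had counts, 1 with each exon of the pair. These 2 also differ by the 37-base exon and in total length (3942 and 3260 bases). The share therefore splits 2 whole transcripts, and use of the exon pair alone was not tested. In DNM2 the downstream exon was the minor one, with 8.05% and 7.05% in PANC-1 and 8.99% and 10.5% in PZT-2, which did not overlap. The 2 transcripts that hold it were unsteady. From replicate 1 to replicate 2 of PZT-2, 1 went from 46.2 to 218 normalized counts and the other from 148 to 0. The 12-base exon of DNM2 was in 55.0% and 63.2% of transcripts in PANC-1 and in 58.1% and 73.0% in PZT-2, which overlapped. In every library DNM2 was made mostly with the upstream exon.

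For DNM1L the 78-base exon was in 39.2% and 42.6% of transcripts in PANC-1 and in 35.7% and 35.9% in PZT-2. The 33-base exon was in 47.6% and 47.9% in PANC-1 and in 53.4% and 61.0% in PZT-2. Neither share overlapped between the lines, and the differences ran in opposite directions. Of the 7 shares given for the 4 genes, 4 did not overlap, beside 37.9% of 22097 transcript shares in all genes with 2 or more tested transcripts. The 37.9% counts single transcripts, whereas the shares here, except that of DNM1, sum more than 1. A coding OPA1 exon of 108 bases is not among the 7, since exons with a high mean share of their gene's TPM were left out. Its share was 100% and 83.4% in PANC-1 and 78.7% and 100% in PZT-2, which overlapped. The 4 single transcripts of DNM1L were far less steady than its shares. NM_012063 took 32.5% and 12.3% of the counts of DNM1L in the 2 PANC-1 libraries and NM_005690 27.8% and 44.6%. For OPA1 the 54-base exon was in 3.32% and 18.8% of transcripts in PANC-1 and in 31.1% and 19.4% in PZT-2, with no overlap, and the 111-base exon in 28.7% and 39.6% against 30.2% and 25.1%, with overlap. Up to 17.4% of the TPM of OPA1 was in 2 transcripts that could not be linked to exons, and the PANC-1 replicates differed by more than the means of the lines. No model was fitted to the shares. With 2 values against 2, the smallest p of a two-sided exact permutation test is 0.333.

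Among 25 other genes of mitochondrial fusion and fission, 5 were called higher and 4 lower in PZT-2, with a median log2 fold change of -0.02. SLC25A46, an outer membrane protein linked to fission, had 305 and 330 normalized counts in PANC-1 and 150.0 and 184 in PZT-2 (adjusted p = 0.00385, log2 fold change -0.93). MTFP1, an inner membrane fission protein, and INF2, a formin that assembles actin where mitochondria divide, were also lower (log2 fold change -0.39 and -0.34). MIEF1, which recruits DNM1L to the outer membrane beside MFF and FIS1, had 1138 and 1074 normalized counts in PANC-1 and 1606 and 1661 in PZT-2 (adjusted p = 0.00176, log2 fold change 0.56). SPIRE1, an actin nucleator, and AFG3L2, a subunit of an inner membrane protease, were higher (log2 fold change 0.95 and 0.72). The actin factors INF2 and SPIRE1 were thus called in opposite directions. Of the 5 genes called higher, 2 lie on chromosome 3.

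Of 37 tested partners of dynamin in endocytosis, 11 were called higher and 5 lower, with a median log2 fold change of 0.06. PPP3CA and PPP3CB encode catalytic subunits of calcineurin, the phosphatase that acts on DNM1 at synapses, and they were called in opposite directions. PPP3CA had 372 and 428 normalized counts in PANC-1 and 659 and 659.6 in PZT-2 (log2 fold change 0.72), and PPP3CB 954 and 909 in PANC-1 and 692 and 792 in PZT-2 (log2 fold change -0.33). The study named PPP3CB from these libraries. The clathrin adaptors EPN1 and EPN2 also went in opposite directions (log2 fold change -0.44 and 0.63). SNX33, a membrane-bending partner of dynamin, was higher (log2 fold change 0.56) and the clathrin light chain CLTB was lower (log2 fold change -0.34).

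Of 12 other GTPases of the dynamin superfamily, 3 were called higher and 3 lower, with a median of -0.0014. MX2, induced by interferon, had 536 and 613 normalized counts in PANC-1 and 303 and 278 in PZT-2 (adjusted p = 0.00141, log2 fold change -0.99). The atlastins, which fuse membranes of the endoplasmic reticulum, were called in both directions, with ATL2 at 0.40 and ATL3 at -0.25, and EHD1, of endocytic recycling, was lower (log2 fold change -0.24). Of 12 mitophagy genes, 2 were called higher and 1 lower, with a median of 0.0044. CALCOCO2, an autophagy receptor, was lower (log2 fold change -0.45), and the receptors BNIP3 and TAX1BP1 were higher (log2 fold change 0.32 and 0.31). The study named BNIP3 from these libraries.

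For mitochondrial import, metabolism and biogenesis, 17 of 18 genes were tested, and 3 were called higher and 4 lower, with a median of -0.07. Mitochondrial content itself was not measured. The citrate synthase gene CS had 3882 and 3926 normalized counts in PANC-1 and 3330 and 3229 in PZT-2 (adjusted p = 0.0144, log2 fold change -0.25). The import genes TIMM44 and TOMM22 were lower (log2 fold change -0.35 and -0.32), while TOMM70, on chromosome 3, and the chaperonin HSPD1 were higher (log2 fold change 0.33 and 0.37). PPARGC1B, a coactivator of mitochondrial biogenesis, had 172 and 82.2 normalized counts in PANC-1 and 299 and 288 in PZT-2 (adjusted p = 0.0229, log2 fold change 1.23). These genes, too, did not move in 1 direction, and their share called in each list is to be read beside the 28.4% of all genes.

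DNM1 is best known from neurons, so neuronal markers were read beside it. Of 7 markers, SNAP25, STMN2 and NEFL had no counts in the table used here. SYT1 had 77.7 to 109 and SYP 125 to 147 normalized counts over the 4 libraries, and RBFOX3 had at most 9.06. MAP2 was called higher (log2 fold change 0.44, adjusted p = 0.0421), with 300.4 and 270.2 normalized counts in PANC-1 and 424 and 349 in PZT-2. Their summed TPM was 16.5 and 14.4 in PANC-1 and 20.03 and 16.3 in PZT-2, ranges that overlapped, whereas the TPM of DNM1 did not. Of 8 markers of stroma, endothelium and blood, COL1A2, DCN, VWF and PTPRC had no counts, COL1A1 was lower in PZT-2 (log2 fold change -1.75), CD14 was called higher with 0 to 31.6 normalized counts per library, and PDGFRB and PECAM1, at most 15.1, did not pass. Summed over the 4 with counts, TPM was 11.2 and 11.99 in PANC-1 and 5.71 and 6.26 in PZT-2.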

How the data were processed

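RNA-seq of 2 PANC-1 and 2 PZT-2 libraries was re-analysed. Stranded mRNA libraries had been sequenced from both ends, and the authors trimmed reads with Trim Galore 0.4.1, quantified RefSeq transcripts with kallisto 0.43.0 and compared the lines with sleuth 0.29.0, as the submitters' processing notes and the paper state. The notes name hg19; the release of the index and any strand setting of kallisto are not given in the sources used here. The deposited estimated counts appeared to carry 1 factor per library (1.16, 0.935, 1.03 and 1.01), which was undone here. These factors were inferred from the values, from the spacing of low counts in genes with 1 transcript. With the factor undone, 41.1% to 42.3% of the values checked in a library were whole, against 0.915% to 2.39% as deposited. The table of the authors' own comparisons (effects and p-values) was used only to name transcripts.

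Of 31077 transcripts, 27049 were named by that table and 3925 by accession in a RefSeq annotation, leaving 0.0467% of counts unnamed. Estimated counts were rounded and summed to 15221 genes. Features with at least 5 counts in at least 2 libraries were tested with edgeR 4.0.16 (TMM, quasi-likelihood) in R 4.3.3, with Benjamini-Hochberg adjustment over all features and a threshold of 0.05. The script was tested on simulated data. TPM was recomputed from recovered counts and effective lengths. Standard errors were derived from the log2 fold change and the F statistic of the test. The 95% intervals were built from them with the t distribution at the test's degrees of freedom. SD is over 2 libraries. Recovered totals of 12861128 to 15717289 counts per library set the precision of low genes. Neighbouring genes were ordered with the RefSeq annotation of GRCh38.p14, and gene positions, exons and their sequences come from GENCODE 29 (GRCh38), whose transcripts may differ from the authors' index.

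The 9 genes and all lists were chosen with earlier results of these data known. Named were all 9 genes, up to 3 called genes per direction with the largest change in each other list at a mean normalized count of at least 100, all marker genes, and H2AFZ and H2AFV. The list symbols PARK2 and TOMM70A were matched through their newer symbols. Lists are described by counts and medians, with no set test. Alternatives were RLE size factors, DESeq2 1.42.0, no filter, a stricter filter (10 counts in all 4 libraries), log2(TPM + 1) and log2(TPM + 0.1) in limma-trend (limma 3.58.1), a replicate block, leaving out each library, the version 4 dispersion estimate of edgeR, the deposited values as they are, length-scaled counts and the most abundant transcript alone.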

Additional observations from a re-analysis of the deposited data

How the results depend on the processing

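Over 15 alternative fits, 4292 genes called became 2126 with the most abundant transcript alone and 1739 to 4529 with a library left out (lowest without PZT-2 replicate 2). The 2 genes called higher, DNM1 and MFN1, became 1 to 2 with a library left out. Of the 2 called lower, MFF and FIS1, 0 were called with DESeq2, 1 with the most abundant transcript alone and 0 to 2 with a library left out. The replicate numbers did not pair the libraries (correlation of the replicate differences between the lines over genes -0.0206), and with the replicate block 1 gene was called lower (FIS1; MFF had an adjusted p of 0.0505) and no other call among the 8 genes changed. No transcript of these genes was called in the reported fit, against 6 with DESeq2, 2 with at least 10 counts in all 4 libraries, 1 with limma-trend at a pseudocount of 1, 1 with the version 4 estimate of edgeR and 0 with any library left out. The cause of these differences was not tested. The log2 fold change of OPA1 changed sign in limma-trend (0.052 with a TPM pseudocount of 1, 0.054 with 0.1) and with the most abundant transcript alone (0.12), ran from -0.17 to 0.16 with a library left out, and passed in none of the 15 fits. With the most abundant transcript alone, the log2 fold change of DNM2 went to -0.28, of DNM1L to -0.95 and of MFF to -0.56, and FIS1 had an adjusted p of 0.103. Shares by counts in place of TPM were 10.7% and 26.6% for DNM1 and 14.1% and 19.5% for MFN1 in PANC-1 and PZT-2. Only 2 libraries per line and 1 clone limit all of these values.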
